A study of Mus musculus with 15 samples.

Results

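The bile acid transporters of mouse liver were followed here across 3 Txnip genotypes, in bulk RNA-seq of 15 liver libraries. The group has 10 genes out of the 35492 gene symbols with a matched transcript: the uptake carriers Slc10a1, Slc10a2, Slco1a1 and Slco1b2, the canalicular exporters Abcb11, Abcb4 and Abcc2, and the basolateral exporters Abcc3, Abcc4 and Slc51b. The members were chosen by name, around Slc10a2, because earlier results of these same data had shown Slc10a2 low in KO livers. Their levels and differences are therefore given as a description, with no p-value, and the one count of calls among them restates that choice. The tests below are on other genes. The libraries came from 5 KO livers (knockout of Txnip), 5 C247S KI livers (knock-in of the C247S change in TXNIP) and 5 WT livers, all after 8 weeks of high-fat diet. TXNIP is the thioredoxin-interacting protein, and the cysteine replaced by serine in C247S is the one it uses to bind thioredoxin. The labels give neither strain, sex, age and time of day at collection, nor the way the alleles were made or the tissues the knockout reaches. Nor do they state whether the libraries of a genotype came from separate animals, so p-values speak of the spread among libraries, which may be technical.

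Bile acids circulate between liver and gut. Hepatocytes take them up from blood through the sodium-dependent carrier Slc10a1 (NTCP) and through sodium-independent carriers of the Slco family. They then secrete them into the canaliculus through Abcb11, the bile salt export pump, while Abcb4 moves phosphatidylcholine and Abcc2 moves conjugated organic anions into bile. Abcc3, Abcc4 and the heteromer of Slc51a and Slc51b return bile acids to blood. Slc10a2 (ASBT) is the apical sodium-dependent bile acid carrier of the ileum, where it works with the cytosolic binding protein Fabp6, and it is also known from renal tubules and from cholangiocytes, the cells that line bile ducts.

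The promoter windows of Slc10a2 and Slco1a1 are shown because these were the transporters with the largest differences between KO and WT livers. Both come from RefSeq (GRCm38.p6), run from 250 bases before to 50 bases after the annotated start, and are read 5′ to 3′ on the gene's strand, with motif matches in capitals. The Slc10a2 window lies at chr8:5105238-5105537 on the minus strand, and the Slco1a1 window at chr6:141946913-141947212 on the minus strand.
Slc10a2: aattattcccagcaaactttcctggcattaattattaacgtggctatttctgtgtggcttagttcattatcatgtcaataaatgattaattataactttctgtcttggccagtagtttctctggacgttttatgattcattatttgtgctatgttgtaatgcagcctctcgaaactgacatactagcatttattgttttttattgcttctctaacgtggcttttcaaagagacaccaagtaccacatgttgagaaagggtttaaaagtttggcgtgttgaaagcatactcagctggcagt
Slco1a1: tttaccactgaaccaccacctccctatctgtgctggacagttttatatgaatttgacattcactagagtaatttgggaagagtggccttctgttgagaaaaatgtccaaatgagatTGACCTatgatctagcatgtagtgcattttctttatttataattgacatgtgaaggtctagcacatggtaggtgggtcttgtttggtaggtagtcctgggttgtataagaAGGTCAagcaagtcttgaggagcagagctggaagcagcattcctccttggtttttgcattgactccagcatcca
In Slco1a1 the capitals mark a nuclear receptor half-site (AGGTCA) 134 bases before the start on the opposite strand and another 24 bases before it on the gene's strand. The search covered 3 motifs on both strands, namely this half-site, the GATA motif (AGATAA) and an E-box, CACGTG, and the Slc10a2 window held none of these motifs. Over all 32851 RefSeq promoter windows of this length, 16.3% held AGGTCA, 11.2% AGATAA and 7.15% CACGTG. The transporters had 11 windows in that table, from 9 genes, as Slc10a1 and Abcc4 had more than 1. Of these 9 genes, 6 held AGGTCA in any window, 1 held CACGTG and 0 held AGATAA. These counts are per gene, whereas the percentages are per window. Abcc3 had no window there. These matches describe letters in the windows. The RefSeq window of Slc10a2 starts from a different first base than the GENCODE gene, which spans chr8:5083219-5105351.

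Levels in single libraries are given as CPM (counts per 1000000 counts, after TMM scaling), from 18047577 to 23379940 estimated counts per library. Levels of different genes are compared per length, as TPM (transcripts per 1000000 transcripts). The 7 hepatocyte markers tested were abundant, with a summed level of 62900 to 88080 CPM in KO, 75730 to 123800 CPM in C247S KI and 90940 to 112000 CPM in WT livers. Of these 7, 0 rose and 1 fell in KO against WT, namely albumin (Alb), at 38230 ± 6214 CPM in KO, 66620 ± 17790 CPM in C247S KI and 66440 ± 5062 CPM in WT livers (SD, n = 5 each; log2 -0.80, edgeR adjusted p = 0.0292, lost without KO 1, 3, 4 or 5 or without WT 2, 3 or 4, at 0.057 to 0.0946). Alb also fell in KO against C247S KI (log2 -0.80, edgeR adjusted p = 0.0217, lost without KO 5, C247S KI 1 or C247S KI 4, at 0.0501 to 0.0685) and the cytochrome P450 Cyp2e1 rose (log2 0.77, edgeR adjusted p = 0.014). Txnip itself averaged 99.0 ± 24.9 CPM in KO, 192 ± 65.7 CPM in C247S KI and 222 ± 56.2 CPM in WT livers (SD, n = 5 each), a log2 difference of -1.17 between KO and WT (SE 0.24, edgeR adjusted p = 0.00886). The knockout libraries thus held Txnip transcript counts, and transcript-level estimates do not show which exons they came from. The sample titles of KO livers carry numbers between 1176 and 1288, whereas those of C247S KI livers lie between 3082 and 3154 and those of WT livers between 3116 and 3121. The labels do not say what these numbers stand for, so anything that goes with them cannot be told apart from the knockout. Libraries WT 1, KO 5, C247S KI 3 and C247S KI 5 stood apart: on the second principal component of log2 CPM WT 1 was the highest of the 15 (43.8) and KO 5 the lowest (-38.7), C247S KI 3 had the lowest TMM factor (0.861) and C247S KI 5 the highest (1.25). Results are given with and without them where they matter. In all of these values, fewer cells of a type and less RNA per cell cannot be told apart.

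The transporters spanned a wide range of levels in the liver. Per length, Slco1b2 (OATP1B2, an uptake carrier of hepatocytes) was the highest, at 428 ± 32.9 TPM in KO, 374 ± 70.3 TPM in C247S KI and 457 ± 101 TPM in WT livers (SD, n = 5 each). Slc10a1 came next, at 385 ± 31.8 TPM in KO, 354 ± 97.4 TPM in C247S KI and 294 ± 44.1 TPM in WT livers, within 1 SD of Slco1b2 in C247S KI livers. In WT livers the following levels were 132 ± 17.8 TPM for Abcb11, 123 ± 24.5 TPM for Abcb4, 115 ± 45.2 TPM for Abcc3, 73.5 ± 12.4 TPM for Abcc2 and 65.5 ± 39.9 TPM for Slco1a1. Within these 5, neighbours in the order lay within 1 SD of each other. Slc10a2 stood lower, at 22.2 ± 3.81 TPM in WT livers. Abcc4 (0.563 ± 0.113 TPM) and Slc51b (0.520 ± 0.357 TPM) were close to the limit of detection, and their order turned round in WT livers when 1 length per gene was used. In KO livers Slco1a1 reached the third place (139 ± 21.5 TPM), above Abcb4 and Abcb11, while Slc10a2 kept the eighth place at 3.02 ± 1.40 TPM.

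**Figure D1:**
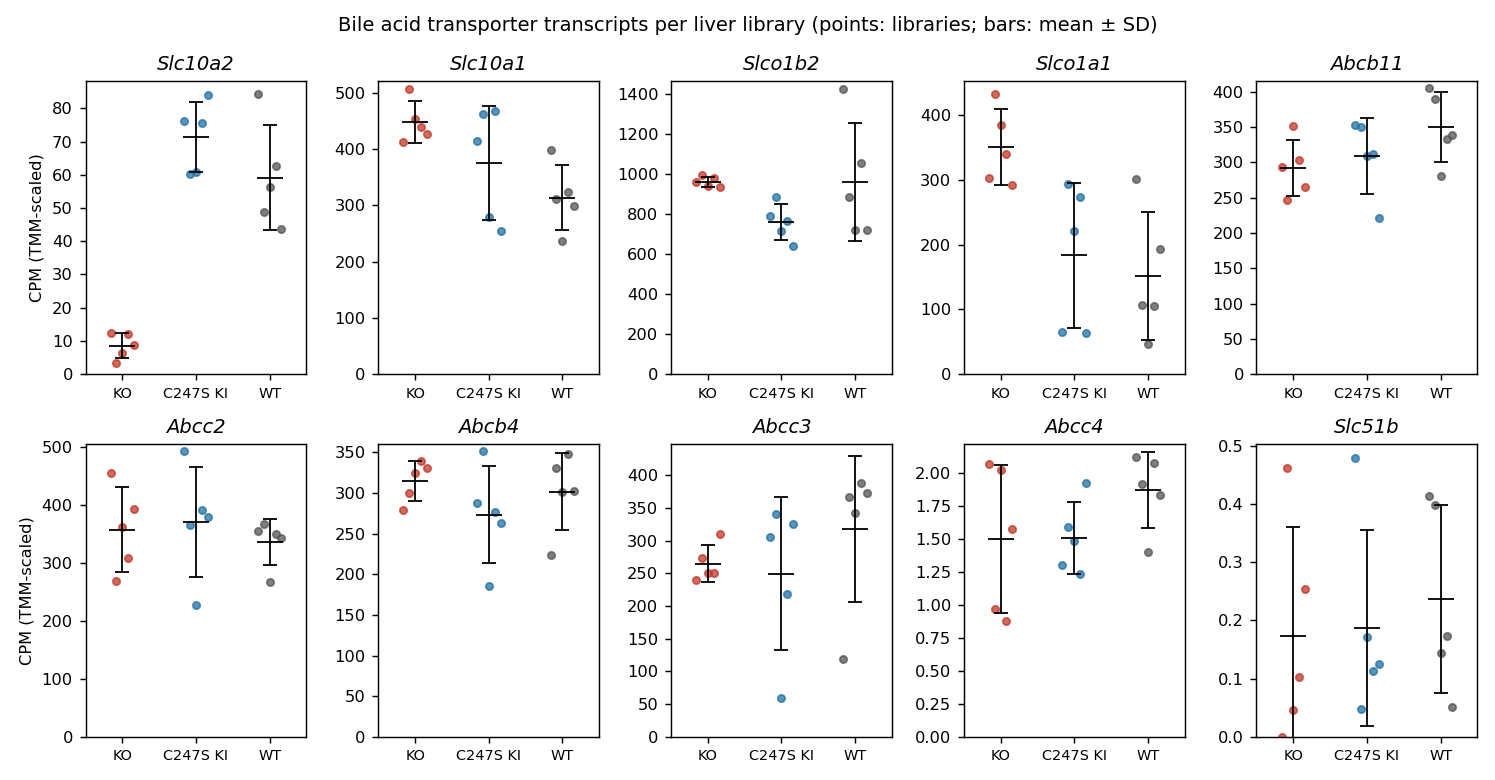
Level of each bile acid transporter in every liver library, in TMM-scaled CPM on linear axes that start at 0; points are the 5 libraries of KO, C247S KI and WT livers and bars the mean ± SD. Slc10a2 lay between 3.28 and 12.5 CPM in KO livers and above 43 CPM in every other library. The groups overlapped in the panels of Slco1a1, Abcb11, Abcb4, Abcc2, Abcc3, Abcc4 and Slc51b.

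Slc10a2 was the transporter with the largest difference. It measured 12.5, 3.28, 6.38, 12.0 and 8.79 CPM in KO livers 1 to 5, against 76.3, 60.2, 60.7, 75.6 and 84.0 CPM in C247S KI livers and 84.2, 48.8, 56.3, 62.7 and 43.8 CPM in WT livers. Each of the KO libraries was below each library of the other genotypes, and the C247S KI and WT ranges overlapped. The means were 8.59 ± 3.87 CPM in KO, 71.4 ± 10.5 CPM in C247S KI and 59.2 ± 15.7 CPM in WT livers (SD, n = 5 each). The fitted log2 difference was -2.79 (SE 0.28) for KO minus WT, or 6.9-fold lower, and -3.06 (SE 0.28) for KO minus C247S KI, or 8.33-fold lower. For C247S KI minus WT it was 0.27 (SE 0.26). Without KO 5 the differences were -2.79 for KO minus WT and -3.07 for KO minus C247S KI. The KO libraries still held 71 to 248 estimated counts of Slc10a2, against 1064 to 2009 in C247S KI and 861 to 1627 in WT libraries, so the low level was measured and not at 0. The gene (ENSMUSG00000023073) has a single annotated transcript of 4152 bases in 6 exons, so no split of reads between its isoforms enters these values. The comparisons with WT and with C247S KI share the KO libraries.

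The ileal partners of Slc10a2 were nearly absent. Fabp6, the ileal bile acid binding protein, had 0 counts in all 15 libraries, which allows up to 3 counts per library, or at most 0.173 CPM. Fabp6, Fgf15, Slc51a and Slc51b together summed to 0.101 to 0.786 CPM in KO, 0.0963 to 0.871 CPM in C247S KI and 0.153 to 0.866 CPM in WT livers, and 0 of the 4 passed the count filter. Of 10 markers of intestinal epithelium only Fabp2, a fatty acid binding protein that liver also expresses, passed the filter. Fabp2 measured 66.7 to 119 CPM in KO, 65.3 to 109 CPM in C247S KI and 99.5 to 178 CPM in WT livers and did not pass the test in KO against WT (log2 -0.64, SE 0.19, edgeR adjusted p = 0.0573), though DESeq2 called it. Fabp6 and Cdx1 were at 0, and without Fabp2 the list summed to 0.101 to 0.277 CPM in KO, 0.0871 to 1.05 CPM in C247S KI and 0.116 to 0.599 CPM in WT livers. Of 7 markers of gallbladder and kidney tubule 2 passed the filter, Gata4 and Ltf. Gata4 averaged 9.87 CPM in KO, 11.6 CPM in C247S KI and 10.2 CPM in WT livers. Ltf averaged 42.4, 52.3 and 43.0 CPM in that order. For KO against WT and KO against C247S KI edgeR, DESeq2 and limma-voom called 0 of them. Slc12a1, a renal tubule marker of that list, was at 0 in all 15 libraries. Cholangiocyte markers were present: their sum was 43.0 to 59.2 CPM in KO, 68.3 to 152 CPM in C247S KI and 56.0 to 76.1 CPM in WT livers. Spp1 was the highest of these markers, averaging 18.3 CPM in KO, 50.9 CPM in C247S KI and 28.0 CPM in WT livers. It reached 98.4 CPM in C247S KI 5, so the sum leans on this gene. Krt7 averaged 4.24, 5.16 and 4.19 CPM in that order of genotypes. Of the 10 tested, edgeR called 0 as risen and 0 as fallen in KO against WT (median log2 difference -0.18, against -0.01 over all genes; 2 were lower at an unadjusted p below 0.05, and DESeq2 and limma-voom called 0), and 0 rose and 2 fell in KO against C247S KI (median -0.51, against -0.03 over all genes). Those were Spp1, the bile duct product osteopontin (log2 -1.48, edgeR adjusted p = 0.00304), and Sox9, a transcription factor of bile duct cells (log2 -1.05, edgeR adjusted p = 0.0122). The part of these cells in the level of Slc10a2 was not tested.

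The balance of clock genes differed in KO livers. The mean log2 CPM of 8 clock genes that peak with Dbp minus that of 4 that peak with Arntl was 2.55 to 3.20 in KO, 0.42 to 1.87 in C247S KI and 1.42 to 2.48 in WT livers, and the KO range overlapped neither of the others. Of the 8, 2 rose in KO against WT, among them Dbp, a clock-driven transcription factor (log2 1.09, edgeR adjusted p = 0.0123), and 0 fell. Of the 4, edgeR called 0 in KO against WT (3 were lower at an unadjusted p below 0.05, DESeq2 called 1 lower and limma-voom 0), and 4 fell in KO against C247S KI. Across the 15 libraries log2 CPM of Slc10a2 had r = -0.81 with this index, and r = -0.31 once genotype means were taken out of both. With the index as a covariate the log2 difference of Slc10a2 was -2.56 (SE 0.35) for KO minus WT and -2.70 (SE 0.44) for KO minus C247S KI. Because the KO range of the index stood apart, the index and the knockout cannot be fully separated in that fit.

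The genes whose pattern over the 15 libraries was most like Slc10a2, by Pearson r of log2 CPM, were Pgm3 (r = 0.95), an enzyme of hexosamine synthesis, Megf9 (0.95), Lgalsl (0.94), Map3k6 (0.94), a MAP kinase kinase kinase, and Cdkn1a (0.94), an inhibitor of cyclin-dependent kinases. These r values carry the gap between KO and the other genotypes; on deviations from genotype means they were 0.63, 0.68, 0.53, 0.62 and 0.48 in that order. Ranked by Spearman's rho, 0 of these 5 stayed among the nearest 5. Cdkn1a measured 6.20 to 14.8 CPM in KO, 49.5 to 148 CPM in C247S KI and 48.2 to 131 CPM in WT livers. Pgm3 measured 9.53 to 14.2 CPM in KO, 22.9 to 24.6 CPM in C247S KI and 18.8 to 25.9 CPM in WT livers. As with Slc10a2, the KO range of both genes lay wholly below the others, a pattern that picking by likeness to Slc10a2 favours. Over all genes, KO did not overlap with WT in 9.61% and with C247S KI in 9.66%.

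Among the hepatocyte uptake carriers, Slco1a1 and Slc10a1 were higher on average in KO than in WT livers. Slco1a1 (OATP1A1, chr6:141907282-141946962) is an organic anion carrier known in mouse liver to be more abundant in males. It measured 303, 434, 385, 341 and 293 CPM in KO livers, against 65.7, 293, 222, 274 and 63.5 CPM in C247S KI livers and 302, 108, 47.2, 106 and 194 CPM in WT livers. The KO libraries were tightly grouped, C247S KI 1 and C247S KI 5 stood low among their group, and WT 1 reached the KO range, so the KO range overlapped both others. The log2 difference was 1.21 (SE 0.46) for KO minus WT, 0.94 (SE 0.45) for KO minus C247S KI and 0.28 (SE 0.45) for C247S KI minus WT. Without WT 1 the first of these was 1.64, with KO at 293 to 434 CPM and the 4 other WT libraries at 47.2 to 194 CPM.

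Slc10a1 (NTCP, chr12:80953183-80968705) measured 412, 508, 455, 439 and 427 CPM in KO livers, against 414, 462, 279, 467 and 255 CPM in C247S KI livers and 399, 311, 238, 323 and 299 CPM in WT livers. All KO libraries were above all WT libraries, by a narrow gap to WT 1, and they overlapped with C247S KI. The log2 difference was 0.51 (SE 0.18) for KO minus WT, 0.26 (SE 0.18) for KO minus C247S KI and 0.26 (SE 0.18) for C247S KI minus WT. Most counts fell on 1 transcript, ENSMUST00000095572, with 73.0% to 85.6% in KO, 77.6% to 89.6% in C247S KI and 78.2% to 94.5% in WT livers.

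Slco1b2 (chr6:141629518-141686646) had nearly equal means in KO and WT livers but a different spread. It measured 959, 993, 940, 980 and 935 CPM in KO livers, against 792, 884, 715, 767 and 642 CPM in C247S KI livers and 1425, 884, 722, 1053 and 718 CPM in WT livers. The KO libraries lay within the WT range and above every C247S KI library. The log2 difference was 0.00 (SE 0.17) for KO minus WT, 0.34 (SE 0.17) for KO minus C247S KI and -0.34 (SE 0.17) for C247S KI minus WT. The last value moved to -0.05 without WT 1, C247S KI 3 and C247S KI 5.

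**Figure D2:**
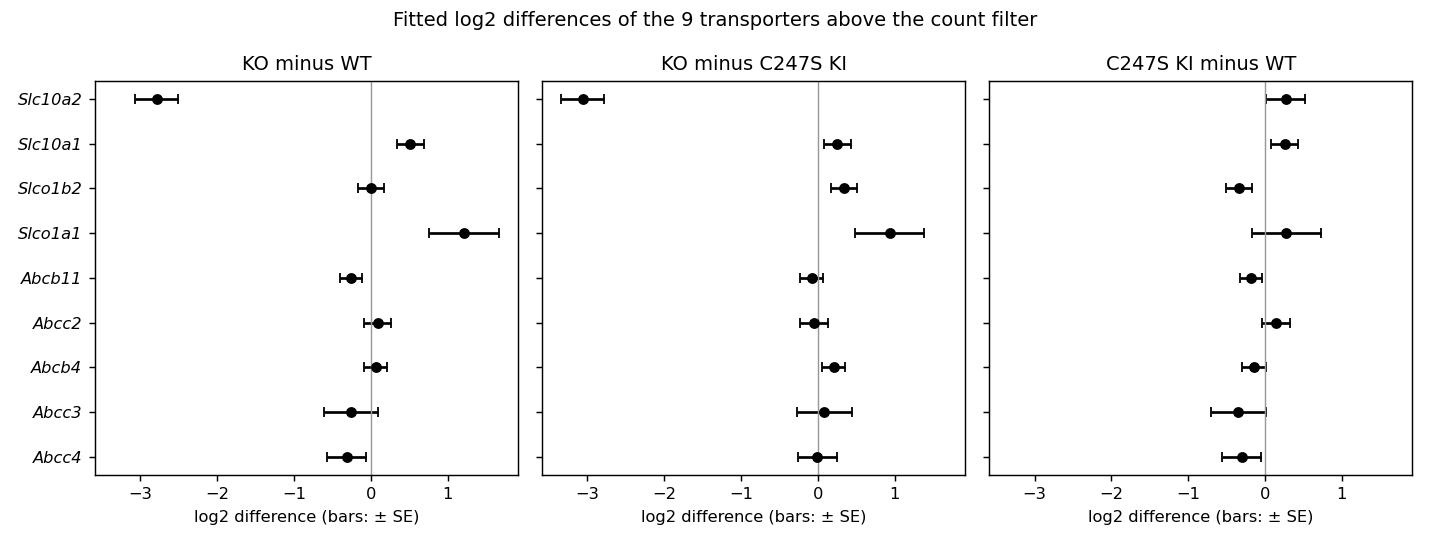
Fitted log2 differences (x axis) of the 9 transporters above the count filter, with bars of ± SE, for KO minus WT, KO minus C247S KI and C247S KI minus WT livers. Slc10a2 lay at -2.79 and -3.06 in the comparisons with KO livers, and the value of the next largest, Slco1a1, was 1.21 and 0.94.

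The canalicular exporters differed little between the genotypes. Abcb11, the bile salt export pump (chr2:69238282-69342616), measured 293, 246, 352, 303 and 265 CPM in KO livers, against 354, 350, 309, 311 and 221 CPM in C247S KI livers and 406, 390, 281, 333 and 339 CPM in WT livers. The groups overlapped, and the log2 difference was -0.26 (SE 0.15) for KO minus WT, -0.08 (SE 0.15) for KO minus C247S KI and -0.18 (SE 0.15) for C247S KI minus WT. Abcb4, the phospholipid floppase (chr5:8893717-8959231), averaged 315 ± 24.7 CPM in KO, 273 ± 59.8 CPM in C247S KI and 301 ± 47.4 CPM in WT livers (SD, n = 5 each), with overlapping ranges. Its log2 difference was 0.06 (SE 0.15) for KO minus WT, 0.21 (SE 0.15) for KO minus C247S KI and -0.14 (SE 0.15) for C247S KI minus WT.

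Abcc2 (MRP2, chr19:43782192-43840740) averaged 358 ± 72.9 CPM in KO, 372 ± 94.7 CPM in C247S KI and 337 ± 39.6 CPM in WT livers (SD, n = 5 each), and its log2 difference was 0.09 (SE 0.18) for KO minus WT, -0.05 (SE 0.18) for KO minus C247S KI and 0.14 (SE 0.18) for C247S KI minus WT. Its transcripts were not split alike. The single-exon coding transcript ENSMUST00000099413 (1926 bases) took 4.43%, 10.3%, 6.35%, 9.49% and 9.56% of the gene's estimated counts in KO livers, against 0%, 0%, 2.33%, 2.68% and 3.65% in C247S KI livers and 0%, 1.79%, 4.31%, 0% and 0.801% in WT livers. The KO shares lay above all others, with 401 to 741 counts per KO library. The full-length transcript ENSMUST00000026208 carried the complementary difference. Of the transporters' 26 transcripts with a mean count of at least 10 these 2 had shares that did not overlap between KO and WT, and the same 2 between KO and C247S KI. Over all 28195 such transcripts the share was 1.19% for KO against WT, 2.59% for KO against C247S KI and 0.855% for C247S KI against WT, where 0 of the 26 did so. This pattern was picked after its values were seen, and the division of reads between transcripts that overlap is an estimate made before deposit.

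Among the exporters to blood, Abcc3 (MRP3, chr11:94343295-94392997) measured 240, 273, 251, 251 and 311 CPM in KO livers, against 306, 341, 59.2, 219 and 325 CPM in C247S KI livers and 120, 368, 342, 388 and 372 CPM in WT livers. The lowest libraries were C247S KI 3 and WT 1, and the groups overlapped. The log2 difference was -0.26 (SE 0.35) for KO minus WT, 0.09 (SE 0.35) for KO minus C247S KI and -0.35 (SE 0.35) for C247S KI minus WT. Without WT 1 the ranges were 240 to 311 CPM in KO and 342 to 388 CPM in WT livers, which do not overlap. WT 1 was the outlying WT library for Abcc3, so leaving it out favours such a gap. The share of all genes without overlap when WT 1 is left out was not computed. Abcc4 (MRP4, chr14:118482692-118706219) averaged 1.50 ± 0.561 CPM in KO, 1.51 ± 0.271 CPM in C247S KI and 1.87 ± 0.288 CPM in WT livers (SD, n = 5 each), with overlapping ranges and log2 differences of -0.31 (SE 0.25) for KO minus WT, -0.01 (SE 0.26) for KO minus C247S KI and -0.30 (SE 0.25) for C247S KI minus WT. Slc51b, a subunit of the basolateral bile acid exporter of ileum (chr9:65412714-65422955), had 0 to 10 counts in KO, 1 to 11 in C247S KI and 1 to 10 in WT libraries and did not pass the count filter. A difference in Slc51b was not detectable at this depth.

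Of the 9 transporters tested, 1 (Slc10a2) was called in KO against WT, as lower, where edgeR called 2.56% of the 13898 genes higher and 4.19% lower at an adjusted p below 0.05. The same 1 was called in KO against C247S KI, also as lower, beside 4.41% higher and 5.86% lower over all genes. In C247S KI against WT 0 of 9 were called, beside 0.0648% higher and 0.0216% lower over all genes. Between KO and WT 2 of the 9 did not overlap (Slc10a1 and Slc10a2), beside 9.61% of all genes, and between KO and C247S KI 2 did not (Slc10a2 and Slco1b2), beside 9.66%. Between C247S KI and WT 0 did so, beside 1.3% of all genes. The median log2 difference of the 9 was 0.00 for KO minus WT, 0.09 for KO minus C247S KI and -0.14 for C247S KI minus WT, against -0.01, -0.03 and 0.00 over all genes. Since Slc10a2 was chosen for its difference, its call restates that choice, and nothing is read from these counts.

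Some transporters varied together from liver to liver. Log2 CPM of Abcb4 and Abcc3 had r = 0.87 over the 15 libraries and 0.89 on deviations from genotype means. Both genes were lowest in C247S KI 3 (185 CPM of Abcb4 and 59.2 CPM of Abcc3) and in WT 1 (224 and 120 CPM). In all other libraries Abcb4 lay at 263 to 352 CPM and Abcc3 at 219 to 388 CPM. For this pair r without C247S KI 3 and WT 1 was not computed, so how far these libraries carry it is not shown. Slc10a1 and Slco1b2 had r = 0.53 over all libraries and 0.71 on deviations. Slc10a1 and Slco1a1 had r = 0.75 over all libraries and 0.61 on deviations. Slc10a2 and Slco1a1 had r = -0.62 over all libraries but -0.15 on deviations. The libraries share their preparation and scaling, and these values describe 15 points each.

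Slco1a1 varied with genes that differ between the sexes in mouse liver. The 5 genes most like it were Hsd3b5 (r = 0.93, and 0.90 on deviations from genotype means), a male-specific hydroxysteroid dehydrogenase, Mup-ps6 (0.93 and 0.89), a major urinary protein pseudogene, the carboxylesterase Ces3b (0.93 and 0.89), the cytochrome P450 Cyp4f14 (0.93 and 0.88) and the major urinary protein Mup7 (0.92 and 0.88). Of these, 1 stayed among the nearest 5 by Spearman's rho. Mup7 and Mup-ps6 belong to a family of near-identical copies, so the division of reads among them is uncertain. Hsd3b5 measured 60.4 to 169 CPM in KO, 1.87 to 56.4 CPM in C247S KI and 1.04 to 51.1 CPM in WT livers, and its KO range lay above both others. Over all genes, KO did not overlap with WT in 9.61% and with C247S KI in 9.66%. Of 12 male-biased liver genes 5 rose and 0 fell in KO against WT (median log2 1.20, against -0.01 over all genes), among them Susd4 (log2 1.83, edgeR adjusted p = 0.000219). Of 9 female-biased genes tested 0 rose and 6 fell (median -2.49), among them Cyp17a1 (log2 -1.38, edgeR adjusted p = 0.0133). In KO against C247S KI 2 of the 12 male-biased genes rose and 1 fell, and 2 of the 9 female-biased genes fell and 0 rose. Between C247S KI and WT livers edgeR called 0 of the 12 (5 were higher at an unadjusted p below 0.05, and DESeq2 and limma-voom called 0), and of the 9 female-biased genes 1 fell. This was the cytochrome P450 Cyp2b13 (log2 -4.64, edgeR adjusted p = 0.0277), whose call was lost with limma-voom (adjusted p = 0.423), in the fit of these 2 groups alone (0.0714) and without any 1 of C247S KI 1 to 3, WT 3 and WT 4 (0.06 to 0.117). The part of this sex-biased pattern in the level of Slco1a1 was not tested.

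**Figure D3:**
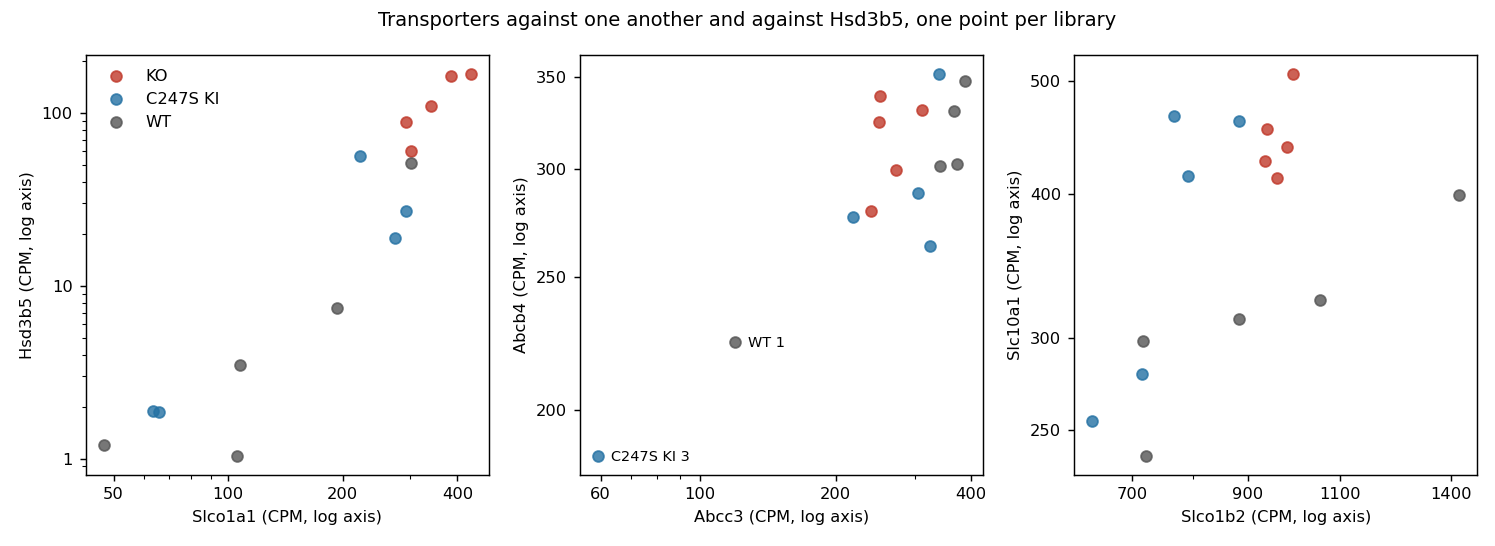
Levels per library on log axes in CPM: Hsd3b5 against Slco1a1, Abcb4 against Abcc3, and Slc10a1 against Slco1b2, with 1 point per library coloured by genotype (KO, C247S KI, WT). Hsd3b5 and Slco1a1 were high in the same libraries (r = 0.93), and WT 1 and C247S KI 3 lay at the low end of Abcb4 and Abcc3.

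Over the gene lists around the transporters, 6 of 72 genes tested were called in KO against WT (8.33%, against 6.76% of all genes) and 8 of 72 in KO against C247S KI (11.1%, against 10.3% of all genes), shares near those over all genes. None of the 14 calls named in the lists that follow held with the clock index as a covariate (edgeR adjusted p 0.118 to 0.966). The KO range of that index overlapped neither other genotype, so the index and the knockout cannot be fully separated in that fit. Nothing is read from the loss of these calls. Of 17 other organic anion and bile acid carriers tested (of 19 listed), 0 rose and 2 fell in KO against WT (median log2 -0.14, against -0.01 over all genes). Slco1a4, an organic anion carrier known to be more abundant in female mouse liver, measured 33.8, 29.0, 20.9, 22.2 and 17.1 CPM in KO livers, against 52.8, 60.5, 74.9, 83.8 and 56.2 CPM in WT livers. The KO and WT libraries did not overlap (log2 -1.42, SE 0.40, edgeR adjusted p = 0.0438), while C247S KI livers ranged from 9.07 to 96.0 CPM. Abcb1a, a multidrug exporter, measured 3.38, 1.76, 1.29, 2.85 and 2.08 CPM in KO livers, against 3.42, 5.95, 5.74, 8.54 and 5.19 CPM in WT livers (log2 -1.35, SE 0.39, edgeR adjusted p = 0.0473). It was also lower in KO than in C247S KI livers (log2 -1.34, SE 0.39, edgeR adjusted p = 0.0369). The call of Slco1a4 was lost when any of KO 2 to 5, C247S KI 4 or WT 2 to 5 was left out (adjusted p 0.0511 to 0.102). That of Abcb1a against WT was lost without any of KO 2 to 5, C247S KI 2, C247S KI 4 or WT 2 to 5 (0.0532 to 0.119), and against C247S KI without any of KO 2 to 5, C247S KI 1 or C247S KI 5 (0.061 to 0.118). In KO against C247S KI the other carrier that fell was Slco3a1 (log2 -0.66, SE 0.17, edgeR adjusted p = 0.0243), lost without KO 1, KO 5, C247S KI 4 or C247S KI 5 (0.051 to 0.0704); the median of the 17 was -0.30, against -0.03 over all genes.

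The canalicular lists together had 1 of 20 genes called in KO against WT (5%, against 6.76% of all genes) and 2 of 20 in KO against C247S KI (10%, against 10.3%). Of 7 canalicular lipid partners tested edgeR called 0 as risen and 0 as fallen in KO against WT (median -0.21; 2 were lower at an unadjusted p below 0.05, and DESeq2 and limma-voom called 0). In KO against C247S KI 1 rose and 0 fell (median -0.16): Abcg8, a partner of Abcg5 in the canalicular sterol exporter (log2 0.58, SE 0.16, edgeR adjusted p = 0.026). It measured 151, 132, 151, 150 and 127 CPM in KO livers, against 132, 113, 64.9, 75.1 and 89.9 CPM in C247S KI livers, and its call was lost without KO 3, KO 4, C247S KI 4 or C247S KI 5 (0.0586 to 0.0669). Of 13 genes of the canalicular membrane scaffold and of transporter trafficking 0 rose and 1 fell in KO against WT (median 0.00) and in KO against C247S KI (median -0.09). This was Msn, the membrane and actin linker moesin, which is known from endothelial and blood cells more than from hepatocytes. It measured 27.9, 24.0, 26.4, 24.8 and 14.7 CPM in KO livers, against 31.2 to 35.5 CPM in C247S KI livers and 33.2 to 38.4 CPM in WT livers, with no overlap with either. The log2 difference was -0.63 (SE 0.13, edgeR adjusted p = 0.00905) for KO minus WT and -0.52 (SE 0.13, edgeR adjusted p = 0.0196) for KO minus C247S KI. Without KO 5, the lowest library, it was -0.50 for KO minus WT and -0.39 for KO minus C247S KI. Some markers of cells other than hepatocytes were also called lower in KO against WT. Of 7 sinusoidal endothelial markers 0 rose and 2 fell, Lyve1 (log2 -1.41, edgeR adjusted p = 0.00348) and Pecam1 (log2 -0.80, edgeR adjusted p = 0.00346), while the sum of the list was 150 to 256 CPM in KO, 138 to 199 CPM in C247S KI and 120 to 299 CPM in WT livers. Of 5 T, NK and B cell markers 0 rose and 2 fell, Ms4a1 (log2 -2.02, edgeR adjusted p = 0.0415) and Ptprc (log2 -0.55, edgeR adjusted p = 0.0459), with sums of 8.24 to 14.2 CPM in KO, 11.9 to 15.9 CPM in C247S KI and 13.2 to 20.6 CPM in WT livers. Both of these calls were lost when single libraries were left out, that of Ms4a1 without any 1 of the KO libraries or WT 1, 4 or 5 (adjusted p 0.051 to 0.122) and that of Ptprc without any 1 library except KO 1, KO 3 and C247S KI 3 (0.0503 to 0.134). Of 10 Kupffer cell and macrophage markers 0 rose and 1 fell, Trem2 (log2 -1.11, edgeR adjusted p = 0.0152), with sums of 192 to 411 CPM in KO, 186 to 316 CPM in C247S KI and 298 to 514 CPM in WT livers. Of 7 stellate cell markers 0 rose and 1 fell, Col3a1 (log2 -1.18, edgeR adjusted p = 0.0332, lost without KO 1, 3 or 5 or WT 2, 3 or 4, at 0.0534 to 0.0771), with sums of 141 to 387 CPM in KO, 297 to 466 CPM in C247S KI and 403 to 475 CPM in WT livers. The median log2 differences of these 4 lists were 0.01, -0.72, -0.31 and -0.40 in that order, against -0.01 over all genes. Against C247S KI the KO livers had 1 call in these 4 lists, Lyve1 as fallen (log2 -1.47, edgeR adjusted p = 0.00165). The part of these cells in the level of Msn was not tested.

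Of 16 genes of bile acid sensing and transporter regulation tested (of 17 listed), 0 rose and 1 fell in KO against WT (median 0.24) and in KO against C247S KI (median 0.02). The gene was Esr1, the estrogen receptor alpha, at 8.27, 3.14, 5.32, 5.08 and 5.59 CPM in KO livers, against 17.5, 13.9, 19.3, 27.3 and 9.82 CPM in C247S KI livers and 13.6, 9.70, 7.67, 10.8 and 9.62 CPM in WT livers. Its log2 difference was -1.68 (SE 0.26, edgeR adjusted p = 0.000922) for KO minus C247S KI. For KO minus WT it was -0.91 (SE 0.26, edgeR adjusted p = 0.0453), a call lost without any of KO 2 to 5, C247S KI 1, C247S KI 2 or any 1 of the WT libraries (0.0519 to 0.123). The bile acid receptor FXR (Nr1h4) had a log2 difference of 0.26 (SE 0.12, edgeR adjusted p = 0.222) and its target SHP (Nr0b2) of 0.72 (SE 0.29, edgeR adjusted p = 0.14), neither past the threshold. Nr1h4 was added to the genes the rule named because the pathway turns on it.

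Of 19 genes of bile acid synthesis and conjugation, 1 rose and 1 fell in KO against WT (median 0.10). Cyp7b1, the oxysterol hydroxylase of the alternative pathway and also one of the male-biased genes above, measured 204, 284, 383, 326 and 295 CPM in KO livers, against 108, 55.9, 44.1, 55.4 and 72.4 CPM in WT livers (log2 2.15, SE 0.44, edgeR adjusted p = 0.00818), and C247S KI livers ranged from 37.7 to 293 CPM. Cyp39a1, another oxysterol hydroxylase, measured 45.3, 18.0, 19.2, 26.5 and 22.9 CPM in KO livers, against 67.9, 44.8, 58.0, 57.0 and 53.7 CPM in WT livers (log2 -1.09, SE 0.30, edgeR adjusted p = 0.0391). Its call was lost without any of KO 2 to 5 or any 1 of the WT libraries (0.0537 to 0.109). Cyp7a1, the rate-limiting enzyme of bile acid synthesis, measured 187, 112, 152, 173 and 298 CPM in KO livers, against 189, 67.0, 23.3, 61.1 and 35.7 CPM in WT livers, where WT 1 alone reached the KO range. It did not pass the test (log2 1.29, SE 0.43, edgeR adjusted p = 0.0763) but did so without WT 1 (log2 1.99, edgeR adjusted p = 0.00289) and, with all libraries, in limma-voom (log2 1.60, adjusted p = 0.0358). DESeq2 did not call it (adjusted p = 0.0787). Without KO 5, the highest KO library, it was weaker (log2 1.06, edgeR adjusted p = 0.184), as it was without WT 4 (log2 1.25, edgeR adjusted p = 0.153). In KO against C247S KI 2 rose, Akr1c6 (log2 0.99, edgeR adjusted p = 0.00342) and Hsd3b7 (log2 0.55, edgeR adjusted p = 0.0179), both sterol or steroid oxidoreductases, and 1 fell, Cyp39a1 (log2 -1.07, edgeR adjusted p = 0.0333, lost without any of KO 2 to 5, C247S KI 1 or C247S KI 4, at 0.0765 to 0.102). In C247S KI against WT 0 genes of the carrier, canalicular, sensing and synthesis lists passed the edgeR test, and DESeq2 and limma-voom also called 0. At an unadjusted p below 0.05 edgeR had 4 of them higher and 4 lower. Over all genes 12 passed the edgeR test and 1366 had an unadjusted p below 0.05.

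**Figure D4:**
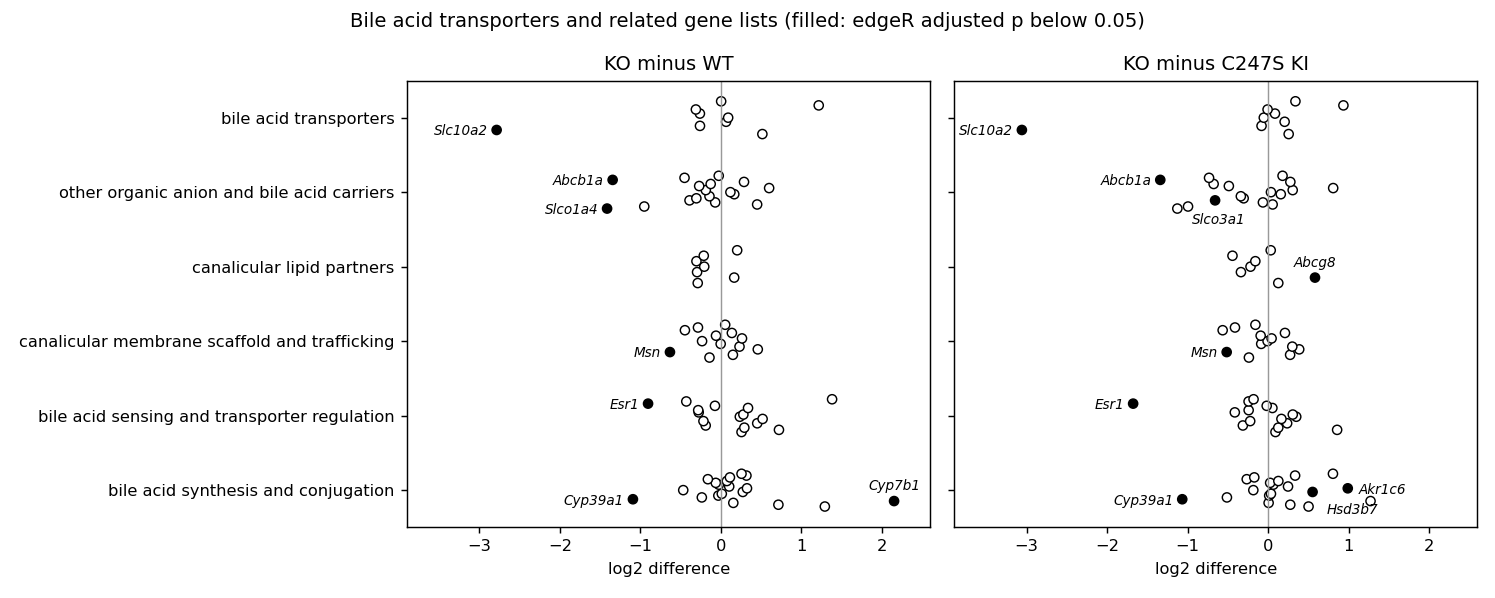
Log2 differences (x axis) of the 9 transporters and of the tested genes of 5 related lists, for KO minus WT and KO minus C247S KI livers; each point is a gene, and filled points with names had an edgeR adjusted p below 0.05. Slc10a2 lay at -2.79 and -3.06, farther from 0 than any other gene in these lists; the largest of the rest were Cyp7b1 at 2.15 in KO minus WT and Esr1 at -1.68 in KO minus C247S KI.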

How the data were processed

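RNA of mouse liver was sequenced in 15 libraries, 5 per genotype. The deposited values are kallisto's estimated counts for each transcript, already whole, so rounding changed nothing; the authors used Trimmomatic 0.39, kallisto 0.50.1, DESeq2 and the mm10 build, per the submitters' processing notes. Which transcript set was used is not given in the sources. Reads shared by transcripts had been divided before deposit.

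Of 115911 transcripts, 114280 (98.59%) matched GENCODE M21 (GRCm38) by identifier without version and were summed per symbol; the 1631 others held 0.373% to 0.48% of the counts. Genes were kept with filterByExpr (minimum count 10), leaving 13898. All 15 libraries entered 1 fit with edgeR 4.0.16 (R 4.3.3): TMM factors, quasi-likelihood test, Benjamini-Hochberg adjusted p below 0.05. SE is the log2 difference over the root of F; log2 CPM used a prior count of 2; TPM used each transcript's length. The procedure was tested on simulated data. DESeq2 1.42.0, limma-voom (limma 3.58.1), other scalings and filters, a replicate block, a clock covariate and left-out libraries were tried.

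Members and lists were chosen with earlier results of these data known. Named by rule were the members, up to 3 called genes with the lowest p per pathway list and comparison (otherwise the lowest p), up to 2 called per marker or context list, and the 5 genes most like Slc10a2 or Slco1a1 by Pearson r, without predicted gene models.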

Additional observations from a re-analysis of the deposited data

Results flagged for a closer look

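Among the 30 groups of 5 libraries (10 transporters in 3 genotypes), 3 held a library far from the other 4 (the gap to its nearest neighbour was over 0.71 of the group's range); chance flags about 1 in 20 groups. Abcc3 measured 120 CPM in WT 1, against 342 to 388 CPM in the other WT libraries. Abcc2 measured 268 CPM in WT 3, against 343 to 368 CPM in the other WT libraries. Slc51b measured 0.479 CPM in C247S KI 1, against 0.0481 to 0.171 CPM in the other C247S KI libraries, all of them within 1 to 11 counts.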

How the results depend on the processing

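The log2 differences of the 9 transporters in 3 comparisons were recomputed under 11 other settings and by leaving out each of the 15 libraries, 699 values in all. In the edgeR fit of all 15 libraries only Slc10a2 in KO minus WT and in KO minus C247S KI was a called difference. It kept its sign throughout. Other differences near 0 changed sign between settings. Among them were Slco1b2 in KO minus WT (-0.116 to 0.195) and Abcc3 in KO minus C247S KI (-0.172 to 0.324). In all, 2 values moved by more than the spread between libraries. Both were in C247S KI minus WT without WT 1, C247S KI 3 and C247S KI 5: Slc10a1 at 0.62 and Slco1b2 at -0.05. For Slc10a2 the range was -2.95 to -2.56 in KO minus WT, -3.23 to -2.70 in KO minus C247S KI and 0.14 to 0.44 in C247S KI minus WT. The number of genes called moved more: in KO against WT, 939 became 1506 with DESeq2, 161 with the clock index as a covariate and 1543 without WT 1 and both C247S KI 3 and 5, and lay between 521 and 1258 when single libraries were left out. In C247S KI against WT, 12 became 70 with DESeq2, 19 with no count filter, 6 with only these 2 groups, 6 with the replicate block and 29 with the clock covariate, and lay between 4 and 24 with single libraries left out. In KO against C247S KI, 1428 became 98 with the clock covariate and lay between 784 and 2274. The cause was not tested. The KO range of the clock index overlapped neither other genotype, so losses with that covariate cannot be told apart from removal of the genotype difference itself. With the clock covariate Cyp39a1 in KO minus C247S KI turned to 0.051 (adjusted p = 0.966), and the calls of Txnip, Spp1, Sox9, Cyp17a1, Dbp, Alb, Cyp2e1, Lyve1, Trem2, Ptprc, Ms4a1 and Col3a1 were lost besides the 14 pathway calls, while Susd4 and Pecam1 in KO against WT were not. Of the calls named, limma-voom lost Slco1a4, Esr1 and Ms4a1 in KO against WT, both calls of Abcb1a, and Cyp2b13 in C247S KI against WT. The fit of 2 groups lost Ptprc in KO against WT and Cyp2b13 in C247S KI against WT. It also lost Abcb1a, Abcg8, Cyp39a1 and Alb in KO against C247S KI. Leaving out the 3 libraries lost Esr1, Ptprc and Ms4a1 in KO against WT and Slco3a1, Abcg8 and Msn in KO against C247S KI. With protein-coding transcripts only, Ptprc, Ms4a1 and Trem2 in KO against WT were lost. Of 15 same-number pairs of libraries across genotypes 4 had a correlation above 0.1 (range -0.14 to 0.38). Pairs of unlike number were not computed, so whether the numbers pair the samples is not settled. The replicate block called 1047, 6 and 1595 genes in KO against WT, C247S KI against WT and KO against C247S KI, of which 838, 6 and 1297 were shared with the fit without it, and gave -2.85 for Slc10a2 in KO minus WT. With the block Cyp7a1 (log2 1.58, adjusted p = 0.0312) and Fabp2 passed in KO against WT, and the calls of Ptprc, Ms4a1 and Col3a1 in KO against WT and Cyp2b13 in C247S KI against WT were lost. By Spearman's rho, 0 of the 5 genes most like Slc10a2 and 1 of those most like Slco1a1 stayed. Below about 10 counts per library, as for Slc51b, differences are not measurable at this depth. With no count filter both calls of Alb and that of Ptprc were lost, and with upper-quartile factors that of Ptprc. Of the 9 transporters, DESeq2 called Slc10a1 and Slc10a2 in KO against WT, beside 1506 calls over all genes. The fit of 2 groups called the same 2, beside 1293 over all genes. Leaving out WT 1 gave Slc10a2 and Slco1a1, where fits without a single library had 521 to 1258 calls over all genes. The fit without the 3 libraries gave Slc10a1, Slc10a2, Abcc3 and Slco1a1, beside 1543 over all genes. Nothing is read from these counts.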
